A study of Mus musculus with 24 samples.

Results

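The genes described here are 39 genes of DNA replication and S phase, the cell cycle phase in which the genome is copied. They were listed by name for what their proteins do, and all 39 were found among the 21959 genes of the deposited count table. Of these, 38 had enough reads to enter the test, which covered 14216 genes. The 39th, Fen1, the nuclease that trims the flaps of lagging-strand fragments, had between 0 and 4 reads in each library. In the GENCODE M21 annotation of GRCm38, 78.8% of the exon bases of Fen1 are shared with Gm10143, a gene on the other strand, and whether reads there were left uncounted was not tested.

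The aortas came from male mice of 4 groups. WT-BAPN mice (wild type, n = 7) drank 0.5% (w/v) β-aminopropionitrile (BAPN) for 28 days from 3 weeks of age, and WT mice (n = 6) drank plain water. KI-BAPN mice (ATAD3A knock-in, n = 6) drank the same BAPN solution for 28 days, and KI mice (n = 5) drank plain water. The start age was 3 weeks in all 4 groups. BAPN blocks lysyl oxidase, the enzyme that cross-links collagen and elastin, and is given to young mice to induce aortic aneurysm and dissection. How the knock-in allele was built, which promoter drives it and on which strain is not given in the sources used here. Polyadenylated RNA was read from whole tissue between the ascending aorta and the abdominal bifurcation.

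Before S phase, the origin recognition complex with Cdc6 and Cdt1 loads the Mcm helicase onto DNA. Cdc45 and the GINS complex then join to fire it, and the polymerases, the sliding clamp, its loaders and a supply of deoxynucleotides copy the strands. E2F factors, released by cyclin-dependent kinases, switch on many of these genes as a cell leaves its resting state, which is where most cells of a grown artery are held.

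The libraries held 13127645 to 26490651 counts. Levels are given as CPM, read counts divided by library size, with TMM factors, and put on a common scale. Atad3a, the gene of the knock-in, had 1078 ± 408 CPM in KI (SD, n = 5) and 40.1 ± 11.4 CPM in WT (SD, n = 6), with an exact two-sided permutation p of 0.00433, the smallest this design allows. On BAPN it had 587 ± 262 CPM in KI-BAPN (SD, n = 6) and 33.2 ± 7.25 CPM in WT-BAPN (SD, n = 7; exact permutation p = 0.00117, again the smallest possible). Summed smooth muscle markers, 6 genes including Acta2 and Myh11, were high in every group, with medians of 25937 CPM in WT-BAPN, 41407 CPM in WT, 25745 CPM in KI-BAPN and 31253 CPM in KI. Acta2 and Myh11 made up most of each sum. Tagln, another of these markers, had only 9.73 CPM (WT-BAPN replicate 5) to 54.6 CPM (WT replicate 6), and why was not tested. Myocd had 8.33 CPM (KI-BAPN replicate 3) to 96.8 CPM (WT replicate 4). WT replicate 5 stood apart. Its sums were 8469 CPM for smooth muscle markers, the lowest of all libraries, 541 CPM for 5 B cell markers, 239 CPM for 6 T cell markers, 686 CPM for 7 macrophage markers, 4681 CPM for 5 skeletal muscle markers and 15543.5 CPM for 4 airway markers. The WT medians of these sums were 2.00 CPM for B cell, 1.63 CPM for T cell, 133 CPM for macrophage, 11.7 CPM for skeletal muscle and 22.7 CPM for airway markers. In whole tissue, a change in the number of dividing cells and a change in RNA per cell cannot be told apart.

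Promoter sequences are shown first because the genes are known as a set switched on through shared promoter elements. RefSeq windows of 300 bases on GRCm38.p6, from 250 bases before to 50 bases after a transcript start, were at hand for 31 of the 39 genes. An E2F-type element, searched as TTTCCCGC, TTTCGCGC, TTTGCCGC or TTTGGCGC on both strands, was found in the windows of 14 of these 31 genes (45.2%). It was found in 4.42% of the 11176 tested genes with a window and in 2.605% of all 27025 genes of the RefSeq promoter table. In the comparison list of 18 mitosis genes, 15 had a window and 1 held the element. The letters CCAAT were found in 18 of the 31 replication genes (58.1%), 14 of the 15 mitosis genes and 42.65% of the tested genes. TTTGAA, the letters of an element known from mitosis genes, was found in 4 of the 31 replication genes, 11 of the 15 mitosis genes and 14.44% of the tested genes. A match is a string of letters and not a bound site.

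Mcm6 and Mcm5, subunits of the Mcm helicase, are shown because their windows hold several matches. The Mcm6 window is chr1:128359656-128359955 on the minus strand, with matches that begin at -110, -106 and -47 from the start, the first pair overlapping on opposite strands. The Mcm5 window is chr8:75109259-75109558 on the plus strand, with overlapping matches at -153 and -149. Windows of 4 of the genes that rose on BAPN in WT are set beside them. These are Orc6 (chr8:85299382-85299681, plus strand), Mcm10 (chr2:5012742-5013041, minus strand), Cdc45 (chr16:18811923-18812222, minus strand) and the second of 3 windows of Lig1 (chr7:13278576-13278875, plus strand). Capitals mark the E2F-type element, which of these 4 genes was found in Lig1, at +27. The Mcm10 window ends in tttggcg, and a match running past its end could not be seen. The fifth gene that rose, Gins2, is among the 8 genes not matched.
Mcm6: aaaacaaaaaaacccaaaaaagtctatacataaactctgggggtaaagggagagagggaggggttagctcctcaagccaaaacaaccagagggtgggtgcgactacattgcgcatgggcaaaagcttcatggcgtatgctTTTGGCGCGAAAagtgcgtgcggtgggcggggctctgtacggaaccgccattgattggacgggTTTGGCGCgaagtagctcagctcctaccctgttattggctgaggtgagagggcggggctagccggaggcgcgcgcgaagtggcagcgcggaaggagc
Mcm5: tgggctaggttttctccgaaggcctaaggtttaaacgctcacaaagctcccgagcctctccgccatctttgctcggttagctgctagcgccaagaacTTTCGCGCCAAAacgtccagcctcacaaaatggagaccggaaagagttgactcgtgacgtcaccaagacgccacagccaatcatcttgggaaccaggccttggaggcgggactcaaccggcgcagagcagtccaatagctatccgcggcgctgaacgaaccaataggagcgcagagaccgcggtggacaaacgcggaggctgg
Orc6: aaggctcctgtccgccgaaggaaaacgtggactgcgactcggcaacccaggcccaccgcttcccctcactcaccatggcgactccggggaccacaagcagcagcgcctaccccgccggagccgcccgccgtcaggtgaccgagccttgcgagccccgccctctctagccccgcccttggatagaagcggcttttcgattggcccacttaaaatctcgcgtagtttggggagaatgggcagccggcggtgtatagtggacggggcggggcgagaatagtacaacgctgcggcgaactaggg
Mcm10: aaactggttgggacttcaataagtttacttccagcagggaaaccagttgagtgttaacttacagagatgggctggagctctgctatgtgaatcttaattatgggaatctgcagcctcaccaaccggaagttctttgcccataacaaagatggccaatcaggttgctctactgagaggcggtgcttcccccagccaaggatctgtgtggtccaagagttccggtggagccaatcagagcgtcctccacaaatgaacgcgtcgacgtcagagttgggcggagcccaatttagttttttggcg
Cdc45: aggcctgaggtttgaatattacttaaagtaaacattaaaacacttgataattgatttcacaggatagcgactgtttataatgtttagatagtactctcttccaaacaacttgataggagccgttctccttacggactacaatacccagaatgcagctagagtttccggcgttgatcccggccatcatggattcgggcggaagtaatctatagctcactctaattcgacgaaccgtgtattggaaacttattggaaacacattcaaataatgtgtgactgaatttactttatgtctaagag
Lig1: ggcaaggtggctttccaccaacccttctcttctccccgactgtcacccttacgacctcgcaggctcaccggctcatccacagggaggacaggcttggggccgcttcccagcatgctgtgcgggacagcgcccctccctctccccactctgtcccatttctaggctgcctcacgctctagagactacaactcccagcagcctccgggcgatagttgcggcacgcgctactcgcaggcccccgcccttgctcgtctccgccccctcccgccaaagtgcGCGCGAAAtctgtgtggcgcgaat

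The 39 genes were not alike in level. Per kilobase of the gene length in the table, WT levels ran from 24.2 ± 8.71 CPM per kb for Mcm6 and 21.7 ± 2.97 CPM per kb for Pcna, the sliding clamp, down to 0.0816 ± 0.0633 CPM per kb for Mcm10 (SD, n = 6 each), leaving out Fen1. Gins4, a GINS subunit, followed at 13.8 ± 1.42 CPM per kb, and Orc6, the smallest subunit of the origin recognition complex, after it at 6.43 ± 0.759 CPM per kb. Mcm6 and Pcna did not differ beyond their spread. The other 5 subunits of the Mcm ring were far below Mcm6, from 4.66 ± 0.911 CPM per kb for Mcm7 to 0.842 ± 0.423 CPM per kb for Mcm2. Subunits of the same complex were thus read at unequal levels, and the low genes, Mcm10 with as few as 3 reads in a library, carry the widest counting error.

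The mean log2 CPM of the 39 genes gives a single level per library. It averaged 2.86 ± 0.56 in WT-BAPN (SD, n = 7), where it ran from 2.19 in replicate 1 to 3.91 in replicate 7. In WT it averaged 2.35 ± 0.24 (SD, n = 6), from 2.16 to 2.83 in replicate 5. WT-BAPN held the highest libraries and the widest spread, and the groups overlapped. In KI-BAPN the mean was 2.59 ± 0.30 (SD, n = 6), from 2.23 in replicate 4 to 3.03 in replicate 3, and in KI it was 2.33 ± 0.11 (SD, n = 5), from 2.20 to 2.48. The 5 KI libraries were the closest to one another.

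**Figure D1:**
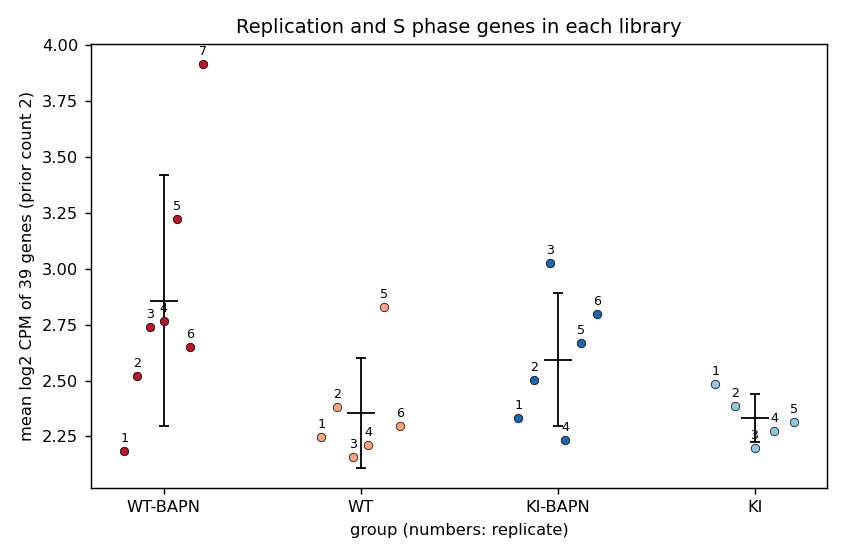
Mean log2 CPM of the 39 genes (vertical axis) in each library, by group; points are libraries with their replicate number, bars the group mean and SD. WT-BAPN replicate 7 lies at 3.91, above all other libraries, and WT replicate 5 at 2.83, above the other WT libraries.

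A few libraries set the extremes for most genes. WT-BAPN replicate 7 had the highest level of its group for 34 of the 38 tested genes and WT-BAPN replicate 1 the lowest for 23. WT replicate 5, rich in markers of other tissues, was the highest WT library for 21 genes. In KI-BAPN, replicate 3 was the highest for 17 genes and replicate 4 the lowest for 17. The marker sums of WT-BAPN replicate 7 were 41393 CPM for smooth muscle, the highest of its group, 1.10 CPM for B cells, 1.52 CPM for T cells and 30.9 CPM for 7 erythroid markers, the lowest of its group. KI-BAPN replicate 3 had the highest sums of its group for macrophage markers (1436 CPM) and erythroid markers (3693 CPM). Its sums for adipocyte (2303 CPM), mesothelium (135 CPM), T cell (22.5 CPM) and B cell markers (13.9 CPM) were also the highest of its group. Its smooth muscle sum, 10043.5 CPM, was the lowest of its group. The part of these markers in the levels was not tested.

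**Figure D2:**
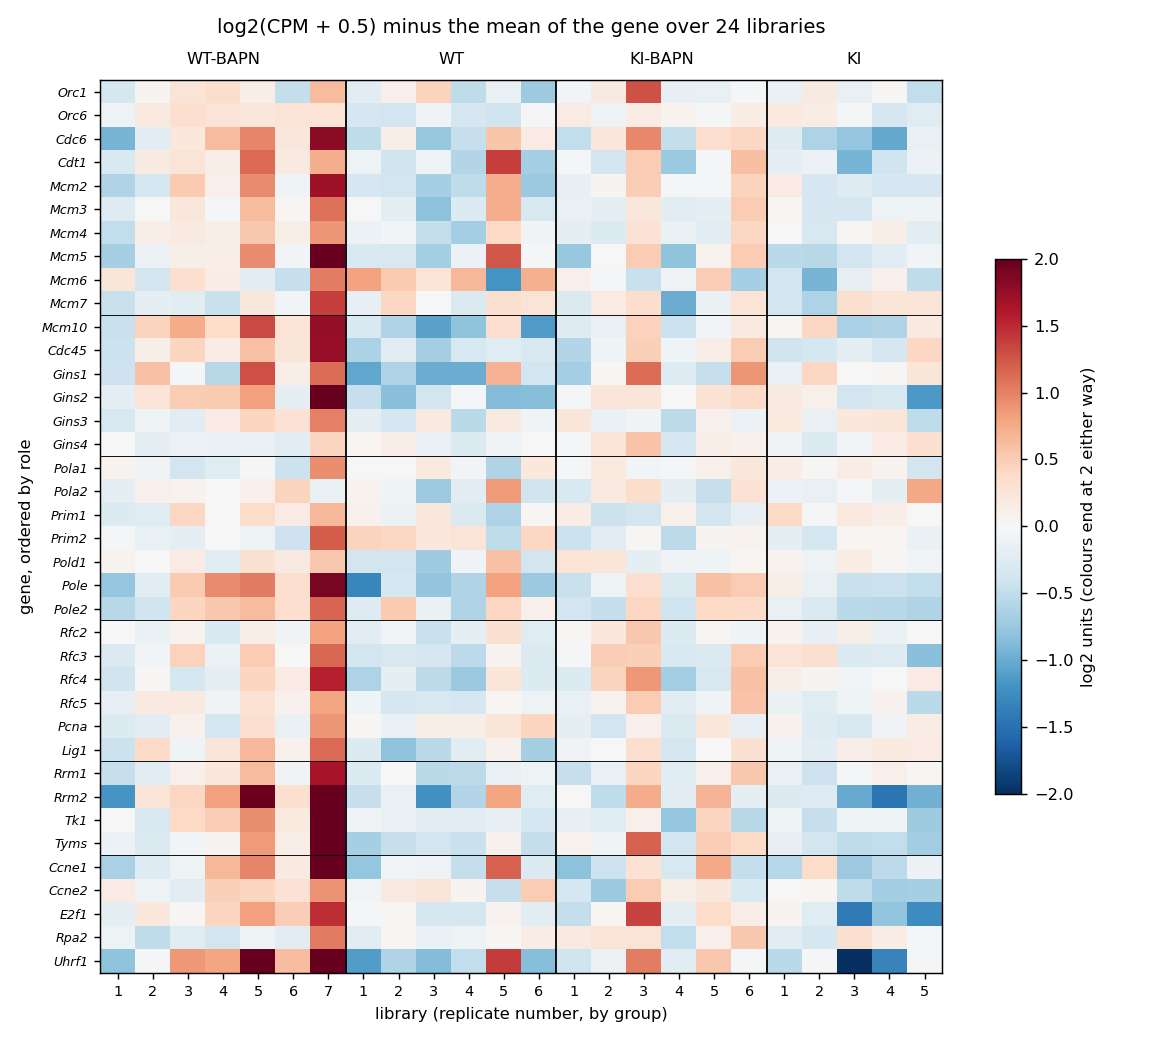
log2(CPM + 0.5) of each of the 38 tested genes minus its mean over the 24 libraries (colour), with genes by role down the page and libraries by group across it. The column of WT-BAPN replicate 7 is red for most genes, and the row of Mcm6 departs from those around it.

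Across the 24 libraries many of the genes followed one another. These correlations are descriptions, since libraries of 1 group share a treatment and all genes of a library share its depth and tissue makeup. They include WT-BAPN replicate 7, whose mean over the genes was 3.91, beside 3.22 for the next highest library. Correlations without it were not computed. Tyms, which makes thymidylate, had a Pearson r of 0.93 with the mean of the other members, Mcm2 0.92 and Rrm1, the large subunit of ribonucleotide reductase, 0.89. At the other end stood Mcm6 with -0.03, Pola2 with 0.23, Prim1 with 0.25 and Pola1 with 0.28, the last 3 being subunits of the primase complex. Mcm6, although it belongs to the same ring as Mcm2, did not follow the others. The 5 genes outside the set with the pattern most like its mean over the 24 libraries were Cdc20, Birc5, Cenpa, Cenpl and Mad2l1, with r between 0.92 and 0.93.

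BAPN was compared with plain water in wild type first. Of the 38 tested genes, 5 rose in WT-BAPN relative to WT and 0 fell, at an edgeR adjusted p under 0.05. They were Orc6, Mcm10, Cdc45, Gins2 and Lig1. Over all tested genes 6.14% were called, 3.44% higher and 2.7% lower. At an unadjusted p under 0.05 there were 17 of 38 genes, beside 25% of all genes. The estimate was positive for 35 genes and negative for 3, and the median log2 change was 0.46, beside -0.04 over all genes tested. No member had WT-BAPN and WT levels that did not overlap, a separation seen in 1.27% of all genes upward and 0.83% downward.

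The count moved with single libraries. It was 12 without WT replicate 5, 9 without WT-BAPN replicate 1, 3 without WT-BAPN replicate 3 or replicate 4, and 2 without WT-BAPN replicate 5 or without any of WT replicates 1, 2, 3, 4 and 6. Calls over all genes tested moved too, from 327 to 1609, beside 873 with every library. The lowest, 327, was without WT replicate 1, where 2 members were called. The highest, 1609, was without WT-BAPN replicate 7, where 4 members were called, beside 5 with every library. Orc6 and Gins2 were called in every one of the 13 fits that left out a library of these groups. The median was 0.67 without WT replicate 5 and 0.26 without WT-BAPN replicate 7. DESeq2 called 9 of the genes, beside 10.7% of all genes. limma voom with quality weights called 19, beside 29.7% of all genes, and these included Mcm6 and Prim2, whose edgeR estimates were negative. A fit of the 2 groups alone called 2, Orc6 and Gins2.

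Among the 10 genes of origin licensing, Orc6 alone was called. Orc6 (ENSMUSG00000031697) had 17.7 CPM in the lowest, 22.8 in the median and 24.1 in the highest WT-BAPN library, against 14.3, 14.97 and 18.5 CPM in WT. In 6 of 7 WT-BAPN libraries it was above every WT library, and the exception was replicate 1. The log2 change was 0.48 ± 0.10 (SE), with an edgeR adjusted p of 0.0161. Mcm2 had 4.39, 7.49 and 23.5 CPM in WT-BAPN and 3.93, 4.96 and 11.8 CPM in WT, a log2 change of 0.79 ± 0.33 (SE) with an adjusted p of 0.139. Mcm4, another ring subunit, had 10.2, 16.2 and 27.3 CPM in WT-BAPN and 8.93, 13.7 and 19.4 CPM in WT, a log2 change of 0.40 ± 0.20 (SE) with an adjusted p of 0.205. Both overlapped widely, with the top WT value in replicate 5 and the top WT-BAPN value in replicate 7. For Mcm2 the change was 0.43 (adjusted p = 0.3123) without WT-BAPN replicate 7 and 1.12 (adjusted p = 0.0333) without WT replicate 5, and for Mcm4 it was 0.27 without WT-BAPN replicate 7. The loaders Cdc6 and Cdt1 had estimates of 0.84 ± 0.45 and 0.32 ± 0.40 (SE), and those of Orc1, Mcm3, Mcm5 and Mcm7 lay between 0.07 and 0.53. Of these 10 genes, Mcm6 had the one negative estimate, -0.25 ± 0.27 (SE), with 61.1, 92.7 and 170 CPM in WT-BAPN and 36.5, 127 and 148 CPM in WT.

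The helicase activators held 3 of the 5 called genes among 6. Mcm10, which helps the assembled helicase to open DNA, had 0.672, 1.68 and 4.92 CPM in the lowest, median and highest WT-BAPN library, against 0.226, 0.484 and 1.53 CPM in WT. The log2 change was 1.84 ± 0.48 (SE), with an edgeR adjusted p of 0.0297, the largest change of the set in WT, and 5 of 7 WT-BAPN libraries were above every WT library. Cdc45, the helicase cofactor, had 2.22, 3.84 and 11.8 CPM in WT-BAPN against 1.80, 2.44 and 2.63 CPM in WT, a log2 change of 1.09 ± 0.32 (SE) with an adjusted p of 0.0436. In 6 of 7 WT-BAPN libraries Cdc45 was above every WT library. Without WT-BAPN replicate 7 its change was 0.70 and its adjusted p 0.06901. The call of Cdc45 was lost in 11 of the 13 fits without 1 library, that of Mcm10 in 7, and their adjusted p then reached 0.0873 and 0.0642.

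Gins2, a GINS subunit, had 2.00, 3.55 and 11.7 CPM in WT-BAPN against 1.07, 1.34 and 2.30 CPM in WT. It was above every WT library in 5 of 7 WT-BAPN libraries. The log2 change was 1.55 ± 0.38 (SE), with an adjusted p of 0.0239, and 1.07 without WT-BAPN replicate 7. Of its exon bases, 67.3% overlap Gse1 on the other strand, whose own log2 change was -0.84 ± 0.43 (SE; adjusted p = 0.226), with 1.56 CPM in WT-BAPN and 2.78 CPM in WT as group means. Whether the counting used strand is not given in the sources used here, so reads of the overlap may belong to either gene. The other GINS genes were not called, with log2 changes of 1.11 ± 0.48 (SE) for Gins1, 0.39 ± 0.24 for Gins3 and 0.01 ± 0.14 for Gins4. The estimates of the GINS genes thus ran from 0.01 for Gins4, the most abundant subunit per length, to 1.55 for Gins2. Differences between these genes were not tested.

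None of the 7 polymerase and primase genes was called by edgeR, and 1 had an unadjusted p under 0.05, beside 25% of all genes. That gene was Pole, the catalytic subunit of the leading-strand polymerase, with 0.878, 2.87 and 8.27 CPM in WT-BAPN against 0.450, 0.982 and 3.62 CPM in WT. Its log2 change was 1.33 ± 0.47 (SE), with an adjusted p of 0.0855. WT replicate 5 was again the highest WT library, and without it the change was 1.90 and the adjusted p 0.0144. Without WT-BAPN replicate 7 the change was 0.96 and the adjusted p 0.1506. Pold1, the catalytic subunit of polymerase delta, had 12.9, 16.8 and 21.99 CPM in WT-BAPN and 8.99, 11.5 and 22.8 CPM in WT, a log2 change of 0.32 ± 0.17 (SE; adjusted p = 0.235), which was 0.54 (adjusted p = 0.01866) without WT replicate 5. Prim1, the catalytic primase subunit, had 9.71, 13.4 and 19.01 CPM in WT-BAPN and 7.52, 11.5 and 13.8 CPM in WT, a log2 change of 0.30 ± 0.17 (SE; adjusted p = 0.276). Pole2, the accessory subunit of the leading-strand polymerase, had 0.44 ± 0.35 (SE), and the estimates of Pola1, Pola2 and Prim2 lay between -0.10 and 0.07. DESeq2 called Pole and limma voom called Pole, Pold1 and Prim2 in this role.

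Among the clamp, its loaders and the lagging-strand enzymes, Lig1 was called of 6 tested. Lig1, which seals the joints between lagging-strand fragments, had 6.87, 11.3 and 21.4 CPM in WT-BAPN against 5.22, 7.05 and 10.01 CPM in WT. Its log2 change was 0.77 ± 0.21 (SE), with an adjusted p of 0.0367, and 5 of 7 WT-BAPN libraries were above every WT library. The call was lost in 8 of the 13 fits without 1 library, where the adjusted p reached 0.0781. The clamp loader subunits Rfc3 and Rfc5 had log2 changes of 0.65 ± 0.26 (SE; adjusted p = 0.119) and 0.42 ± 0.17 (adjusted p = 0.139). Rfc3 had 4.91, 6.16 and 14.2 CPM in WT-BAPN and 4.10, 4.76 and 6.39 CPM in WT. Rfc5 had 7.75, 10.04 and 15.6 CPM in WT-BAPN and 6.79, 7.58 and 9.05 CPM in WT. The groups overlapped for both genes, and Rfc2 and Rfc4 had estimates of 0.24 ± 0.16 and 0.73 ± 0.34 (SE). Pcna, the clamp itself and a common proliferation marker, had 36.9, 42.8 and 87.2 CPM in WT-BAPN and 43.0, 50.9 and 63.7 CPM in WT, with a log2 change of -0.04 ± 0.17 (SE). Apart from replicate 7, every WT-BAPN library was below the highest WT library for Pcna.

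All 4 genes of nucleotide supply had an unadjusted p under 0.05, beside 25% of all genes, and none passed the adjusted threshold. Tk1, the thymidine salvage kinase, had 8.77, 14.7 and 47.4 CPM in WT-BAPN against 8.50, 9.66 and 10.5 CPM in WT, a log2 change of 0.96 ± 0.30 (SE) with an adjusted p of 0.0533. Tyms had 6.64, 8.55 and 41.5 CPM in WT-BAPN against 5.01, 5.88 and 8.76 CPM in WT, a change of 1.14 ± 0.36 (SE; adjusted p = 0.0616). Rrm2, the regulated small subunit of ribonucleotide reductase, had 1.24, 4.71 and 24.8 CPM in WT-BAPN against 1.20, 2.58 and 6.28 CPM in WT, a change of 1.53 ± 0.52 (SE; adjusted p = 0.0750). The single highest value of each came from WT-BAPN replicate 7, and without it the changes were 0.54 for Tk1, 0.55 for Tyms and 0.996 for Rrm2. Tyms and Rrm2 were called without WT replicate 5 or WT-BAPN replicate 1, and Tk1 without WT-BAPN replicate 1 or 2. Rrm1 had 0.69 ± 0.26 (SE; adjusted p = 0.108). DESeq2 called Tk1, Tyms and Rrm2 but not Rrm1.

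The G1 to S regulators of the set, with Rpa2 and Uhrf1, had positive estimates and no call. Uhrf1, which keeps DNA methylation in copied DNA, had 1.08, 4.31 and 13.1 CPM in WT-BAPN against 0.788, 1.19 and 6.84 CPM in WT, a log2 change of 1.45 ± 0.63 (SE; adjusted p = 0.153). Its highest WT value was replicate 5, and without that library the change was 2.33 and the adjusted p 0.0218, while without WT-BAPN replicate 7 the change was 1.11 and the adjusted p 0.2425. E2f1, an activating E2F factor, had 3.20, 5.23 and 11.3 CPM in WT-BAPN against 2.81, 3.41 and 3.96 CPM in WT, a change of 0.78 ± 0.35 (SE; adjusted p = 0.170). Ccne1, the cyclin that drives entry into S phase, had 0.723, 1.68 and 8.69 CPM in WT-BAPN and 0.619, 1.18 and 3.84 CPM in WT (0.86 ± 0.54, SE; adjusted p = 0.330). Its change was 0.22 without WT-BAPN replicate 7 and 1.41 without WT replicate 5. Rpa2, a subunit of the single-strand binding protein, was at 16.3 ± 7.78 CPM in WT-BAPN (SD, n = 7) and 15.7 ± 1.502 CPM in WT (SD, n = 6), and Ccne2, the second cyclin E gene, at 4.45 ± 1.32 CPM in WT-BAPN (SD, n = 7) and 3.78 ± 0.927 CPM in WT (SD, n = 6).

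**Figure D3:**
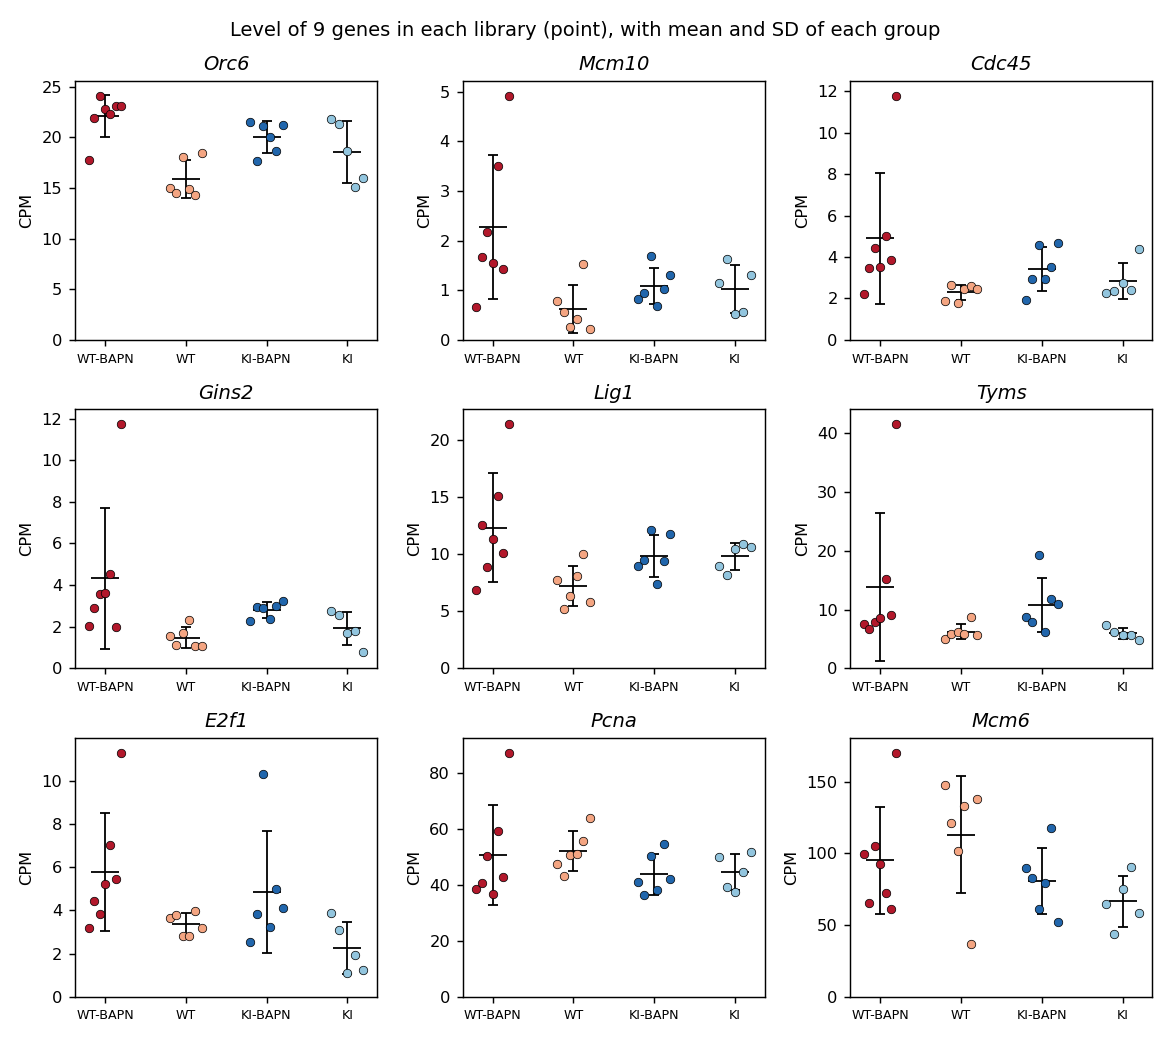
CPM of 9 genes (vertical axes from 0) in each library, by group, with the group mean and SD; points are libraries. Orc6 is at 21.9 CPM or more in 6 of 7 WT-BAPN libraries and at most 18.5 CPM in WT, while Pcna and Mcm6 show no such step.

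In the knock-in, BAPN changed none of the 38 genes at an edgeR adjusted p under 0.05, where 0.0352% of all genes were called. At an unadjusted p under 0.05 there were 3 members, beside 10.1% of all genes, and DESeq2 and limma voom also called 0, beside 1.42% and 0% of all genes. The estimate was positive for 32 genes and negative for 6, with a median log2 change of 0.19, beside -0.03 over all genes. No member separated KI-BAPN and KI completely, as 0.478% of all genes did upward and 0.169% downward. The 3 genes at an unadjusted p under 0.05 were E2f1, Tyms and Cdc6, the last with a log2 change of 1.05 ± 0.50 (SE; adjusted p = 0.485).

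E2f1 had 2.53, 3.99 and 10.3 CPM in the lowest, median and highest KI-BAPN library, against 3.89, 3.07, 1.08, 1.94 and 1.26 CPM in the 5 KI libraries. Its log2 change was 1.10 ± 0.38 (SE), with an adjusted p of 0.313. Without KI-BAPN replicate 3, the library low in smooth muscle markers and rich in those of several other cell types, it was 0.73. Tyms had 6.26, 9.78 and 19.2 CPM in KI-BAPN against 7.31, 6.26, 5.64, 5.73 and 4.88 CPM in KI, a change of 0.85 ± 0.39 (SE; adjusted p = 0.471). For both genes the highest KI-BAPN library lay well above the rest. The genes that rose in wild type had smaller estimates here. They were picked by their calls in wild type, and such a choice by itself favours smaller estimates elsewhere. Orc6 had 17.7, 20.6 and 21.5 CPM in KI-BAPN against 21.8, 21.3, 18.7, 15.1 and 15.96 CPM in KI, a log2 change of 0.11 ± 0.11 (SE; adjusted p = 0.760). Gins2 had 2.29, 2.92 and 3.25 CPM in KI-BAPN against 2.75, 2.57, 1.69, 1.80 and 0.785 CPM in KI (0.53 ± 0.40, SE; adjusted p = 0.664). Mcm10 had 0.690, 0.988 and 1.69 CPM in KI-BAPN against 1.14, 1.63, 0.517, 0.555 and 1.31 CPM in KI (0.06 ± 0.50, SE; adjusted p = 0.978). The KI-BAPN values of Orc6 and the median of Mcm10 lay inside the KI range. Cdc45 and Lig1 changed by 0.28 ± 0.34 and 0.00 ± 0.23 (SE).

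**Figure D4:**
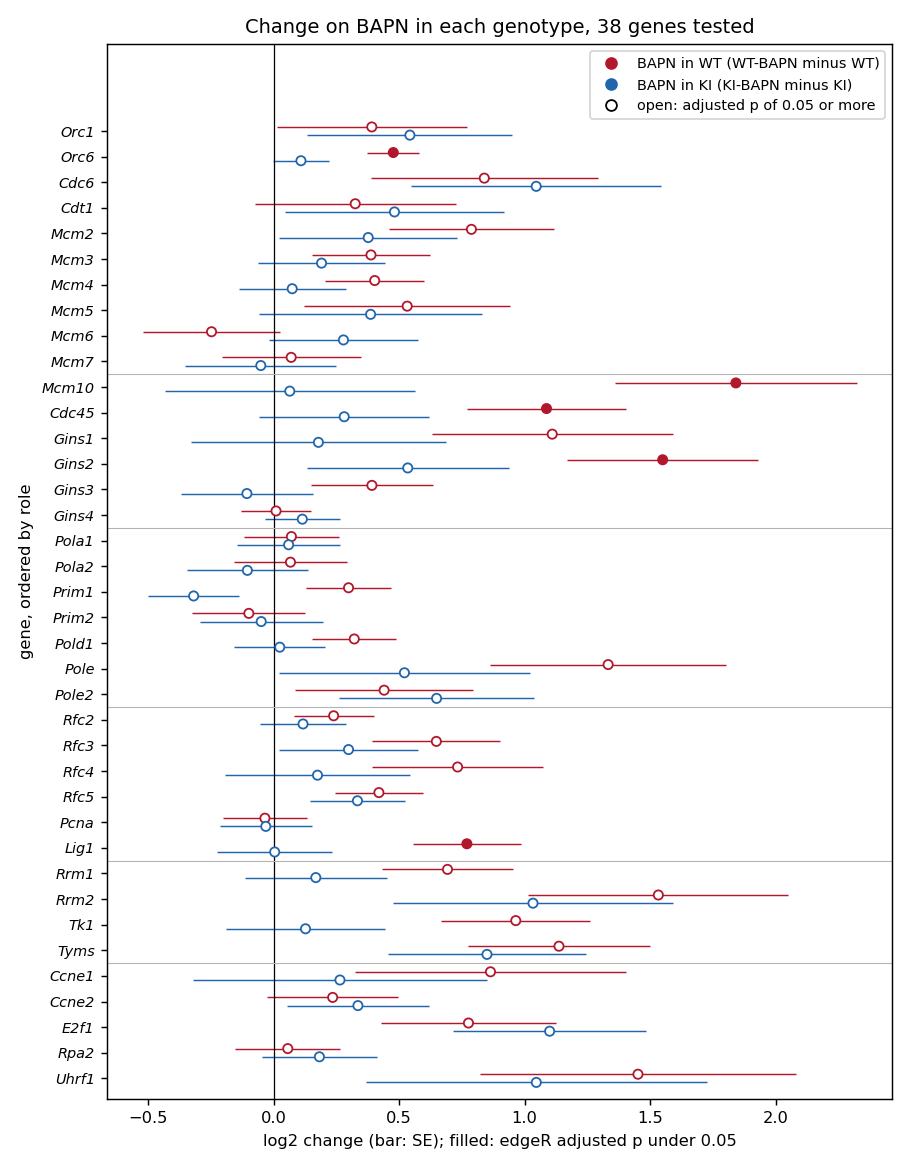
log2 change on BAPN (horizontal axis, bars are the SE) of the 38 tested genes, by role, in WT (red) and KI (blue); filled points passed an edgeR adjusted p under 0.05. The 5 filled points are Orc6, Mcm10, Cdc45, Gins2 and Lig1 in WT.

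Whether BAPN acted differently in the genotypes was tested with the interaction, the change in KI minus the change in WT. edgeR called 0 of 38 members and 0% of all genes, and 4 members had an unadjusted p under 0.05, beside 14.8% of all genes. DESeq2 and limma voom called 0 members, beside 0.0646% and 0.0281% of all genes. The lack of calls in KI therefore does not show that the response differed. The median interaction was -0.29, and it was 0.02 without WT-BAPN replicate 7 and -0.46 without WT replicate 5, so its sign rested on a single library. The smallest p belonged to Mcm10, with an interaction of -1.78 ± 0.68 (SE; adjusted p = 0.288), and Prim1, with -0.62 ± 0.25 (SE; adjusted p = 0.292). Prim1 had 8.66, 9.82 and 13.2 CPM in KI-BAPN against 15.8, 11.6, 13.6, 13.04 and 11.8 CPM in KI, opposite in direction to its wild-type estimate.

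Between genotypes on plain water, none of the 38 genes was called by edgeR, where 0.19% of all genes were. DESeq2 and limma voom also called 0 members, beside 3.45% and 1.9% of all genes. At an unadjusted p under 0.05 there was 1 member, beside 16.9% of all genes, and the median log2 difference was 0.03, beside -0.01 over all genes. That gene was Mcm6. It had 64.4, 43.6, 75.1, 90.4 and 58.7 CPM in the 5 KI libraries, against 36.5, 127 and 148 CPM in the lowest, median and highest WT library. All 5 KI libraries were below every WT library other than replicate 5, which was the lowest of the 24. The log2 difference was -0.77 ± 0.30 (SE), with an adjusted p of 0.197. It was -0.95 without WT replicate 5, with an adjusted p of 0.0506. Orc6 had the second smallest p, with a log2 difference of 0.22 ± 0.11 (SE; adjusted p = 0.317). No member separated KI and WT completely, as 1.13% of all genes did upward and 1.19% downward.

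On BAPN, KI-BAPN was compared with WT-BAPN, and again none of the 38 genes was called by edgeR, DESeq2 or limma voom, where edgeR called 0.00703% of all genes, DESeq2 0.139% and limma voom 0.0211%. At an unadjusted p under 0.05 there were 4 members, beside 13.9% of all genes. The estimate was negative for 34 genes and positive for 4, with a median log2 difference of -0.32 that was -0.08 without WT-BAPN replicate 7. Tk1 had 6.26, 9.53 and 15.1 CPM in KI-BAPN against 8.77, 14.7 and 47.4 CPM in WT-BAPN, a difference of -0.92 ± 0.30 (SE; adjusted p = 0.243). Without WT-BAPN replicate 7 this difference was -0.50. Mcm10 differed by -1.07 ± 0.46 (SE; adjusted p = 0.308). No member separated KI-BAPN and WT-BAPN completely, as 0.106% of all genes did upward and 0.113% downward. The comparisons share groups of libraries and are not independent of one another.

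Averaged over the genotypes, 4 members rose on BAPN, 0 fell, and 4.14% of all genes were called, 1.98% higher and 2.17% lower. They were Orc6 with a log2 change of 0.29 ± 0.08 (SE; adjusted p = 0.0360), Gins2 with 1.04 ± 0.28 (adjusted p = 0.0371), Tyms with 0.99 ± 0.27 (adjusted p = 0.0387) and E2f1 with 0.94 ± 0.26 (adjusted p = 0.0428). The median over members was 0.42, and 17 members had an unadjusted p under 0.05, beside 20.7% of all genes. DESeq2 called 6 members, beside 8.47% of all genes, and limma voom 10, beside 16.8%. These calls were close to the threshold. The count was 9 without WT replicate 5. It was 2 without WT replicate 3, WT-BAPN replicate 4 or 6, or KI-BAPN replicate 2, and 1 without WT replicate 4 or 6, KI replicate 3, or KI-BAPN replicate 1. It was 0 without WT replicate 1 or 2, WT-BAPN replicate 5, KI replicate 4 or 5, or KI-BAPN replicate 3 or 6. Over all genes tested the calls ran from 228 without KI replicate 5 to 1179 without WT replicate 5, beside 589 with every library. Averaged over the treatments, edgeR called 0 members between KI and WT, beside 0.211% of all genes, and 5 had an unadjusted p under 0.05, beside 16.2%. limma voom called 1, Ccne2, beside 2.14% of all genes, and DESeq2 0, beside 2.67%. The smallest p belonged to Mcm6, with -0.50 ± 0.20 (SE; adjusted p = 0.235), and Rrm2, with -0.90 ± 0.38 (SE; adjusted p = 0.247).

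Genes of neighbouring steps were counted in lists outside the 39 genes, to be read against the 6.14% of all genes called on BAPN in WT, 3.44% higher and 2.7% lower. The shares of the chromatin assembly and G1 to S lists were near these, no CDK inhibitor was called, and the other lists had higher shares. No list was tested as a whole. Calls over all genes also moved when single libraries were left out, from 327 to 1609, beside 873 with every library. Of 26 other replication factors, 4 rose on BAPN in WT and 0 fell. They were Rpa3, a single-strand binding subunit (0.83 ± 0.20, SE; adjusted p = 0.0230), Clspn, a checkpoint adaptor at the fork (1.82 ± 0.47; 0.0279), Top2a, the topoisomerase that untangles copied DNA (2.72 ± 0.74; 0.0349) and Topbp1, which takes part in helicase activation (0.52 ± 0.15; 0.0488), each with its log2 change and adjusted p. The median over this list was 0.36. Calls in it numbered 0 with WT replicate 1 left out, 1 without WT replicate 3 or 4 or WT-BAPN replicate 5, 2 without WT replicate 6 or WT-BAPN replicate 3 or 4, and 10 without WT replicate 5. Of 11 tested checkpoint and fork repair genes, 4 rose and 0 fell, with a median of 1.09. Among them, Fancd2, of the crosslink repair pathway, changed by 1.58 ± 0.30 (SE; adjusted p = 0.0107) and Chek1, the S phase checkpoint kinase, by 1.59 ± 0.38 (adjusted p = 0.0210). This count was 1 without WT replicate 1 and 2 without WT replicate 4 or WT-BAPN replicate 5. Of 11 chromatin assembly genes, Chaf1b, a subunit of the histone chaperone at the fork, rose (1.39 ± 0.38, SE; adjusted p = 0.0349) and 0 fell. The histone mRNA binding protein Slbp had 0.45 ± 0.14 (adjusted p = 0.0620) and Atad2, a chromatin factor that binds acetylated histones, 0.64 ± 0.21 (adjusted p = 0.0653). This list held 3 calls without WT replicate 5 or WT-BAPN replicate 1, and 0 without any one of WT replicates 1, 2, 3, 4 and 6 and WT-BAPN replicates 5 and 7.

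Directions were mixed in the regulatory and metabolic lists. Of 14 other genes of nucleotide supply, 3 rose in WT-BAPN relative to WT and 1 fell. Those that rose included Dtymk, the thymidylate kinase (0.54 ± 0.13, SE; adjusted p = 0.0199) and Dut, which removes dUTP (0.88 ± 0.23; 0.0319). Ctps, the CTP synthase, fell (-0.88 ± 0.23; 0.0298), and the list median was 0.19. The count of 4 was 1 without WT replicate 1 or 6 or WT-BAPN replicate 5, and 2 without WT replicate 4 or WT-BAPN replicate 6. Of 21 G1 to S regulators 1 rose and 1 fell. Cdk2, the kinase bound by cyclin E, had 31.0 CPM in WT-BAPN and 21.2 CPM in WT as group means, a log2 change of 0.54 ± 0.13 (SE; adjusted p = 0.0236). Ccnd2, a D-type cyclin, had 130 CPM in WT-BAPN and 208 CPM in WT (-0.68 ± 0.19, SE; adjusted p = 0.0359). Rbl1, a pocket protein that binds E2F, had 1.19 ± 0.37 (adjusted p = 0.0562). Calls in the G1 to S list numbered 5 with WT replicate 5 left out, 0 with WT replicate 1 left out, and 1 with any one of WT replicates 2 to 4 or WT-BAPN replicates 2 to 6 left out. None of the 7 CDK inhibitors was called by edgeR or DESeq2. At an unadjusted p under 0.05 there was 1, beside 25% of all genes, and limma voom called 2, beside 29.7%. Cdkn1a, the p53 target p21, had 64.6 CPM in WT-BAPN and 103 CPM in WT, with 61.3 CPM in KI-BAPN and 123 CPM in KI, and its adjusted p was 0.226 in wild type and 0.356 in the knock-in. Cdkn1c had a log2 change of -0.60 ± 0.25 and Cdkn2c 0.72 ± 0.40 (SE) in wild type.

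The 18 mitosis genes stood higher than the replication genes in the same comparison. Of these, 15 rose on BAPN in WT and 0 fell, with a median log2 change of 2.55, beside 0.46 for the replication set and -0.04 for all genes. Tpx2, a spindle assembly factor, changed by 2.47 ± 0.52 (SE; adjusted p = 0.0144), Ccnb2, a mitotic cyclin, by 2.87 ± 0.63 (adjusted p = 0.0161) and Ccna2, the cyclin of S phase and mitosis, by 2.81 ± 0.62 (adjusted p = 0.0163). Leaving out WT replicate 1 left 6 calls, and leaving out WT replicate 4 left 9. In KI the median was 1.24, beside 0.19 for the replication set. There edgeR called 0 mitosis genes, beside 0.0352% of all genes. At an unadjusted p under 0.05 there were 5 mitosis genes, beside 10.1% of all genes. The difference between the lists was not tested. In KI none of the other 6 lists held a called gene either, and their medians lay between 0.03 and 0.19.

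**Figure D5:**
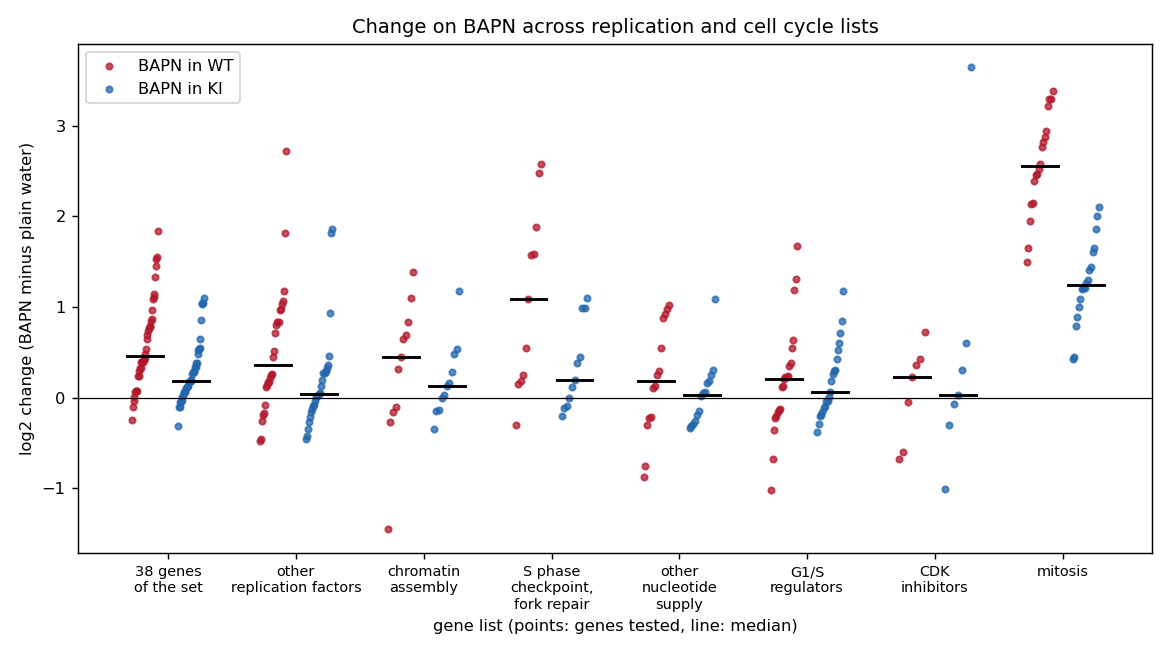
log2 change on BAPN (vertical axis) of the tested genes of the set and of 7 lists in WT (red) and KI (blue); points are genes and lines are medians. The mitosis medians, 2.55 in WT and 1.24 in KI, lie above those of the replication genes, 0.46 and 0.19.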

How the data were processed

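Aortic RNA from 24 male mice was sequenced, and the authors deposited 1 table of read counts per gene and library. Per the submitters' processing notes, Trim Galore, FastQC, HISAT2 and DESeq2 were used, with the builds GRCm38 and mm10. Which tool counted the reads, and whether it used strand, is not given in the sources used here. Reads where genes overlap may have been dropped or assigned to either gene. Coordinates in the table equalled those of GENCODE M21 on GRCm38 for 514 of 21851 genes, so none of them is printed. Promoter windows are RefSeq's.

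The 39 genes and all lists were chosen with earlier results of these data known. Each of the 24 columns matched 1 sample (0 unmatched), every row named a gene, and 0 pairs of libraries were identical. The labels list separate samples, so p-values measure the spread between these animals' libraries.

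In edgeR 4.0.16 (R 4.3.3), genes were kept with filterByExpr by group and scaled with TMM, and 1 mean per group was fitted over all 24 libraries with robust quasi-likelihood F tests. Benjamini-Hochberg adjustment ran over 14216 genes, and calls needed an adjusted p under 0.05 with no minimum fold. Log2 CPM used a prior count of 2. Alternatives were DESeq2 1.42.0, limma 3.58.1 (voom with quality weights), RLE size factors, no low-count filter, a mean count of at least 10, a fit of only the groups compared, a threshold of 0.1, a replicate block and leaving out each library. Leaving out WT replicate 5 with KI replicates 1, 2 and 5, a set named in an earlier reading of these data, or WT replicate 5 with WT-BAPN replicate 7, was added after seeing the data. The fit was also run on counts simulated independently for each gene and library. Those counts hold no unusual libraries such as WT replicate 5, and the outcome is not reported here. Named genes were every called member, up to 3 per role by p in wild type, the 2 smallest p in the other contrasts, and per list up to 3 by p; others were named after their values were seen. Some called genes of the lists are not reported here.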

Additional observations from a re-analysis of the deposited data

Results flagged for a closer look

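Within each group, 80 sets of library values were searched for a highest or lowest library far from its nearest neighbour, and 7 were found; chance gives about 1 in 20 groups. WT replicate 5 accounts for 4 of them. Its mean log2 CPM over the 39 genes was 2.83, its Mcm2 11.8 CPM and its Uhrf1 6.84 CPM, all above the other WT libraries, while its Mcm6 was 36.5 CPM, below them. WT-BAPN replicate 1 had the lowest Orc6 of its group at 17.7 CPM. KI replicate 1 had the highest Mcm2 of its group at 7.82 CPM, and KI replicate 5 the highest Cdc45 at 4.36 CPM.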

How the results depend on the processing

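Signs were followed for up to 3 genes per role and per list in wild type and for 2 members in each other contrast. Tyms and E2f1 for BAPN averaged over genotypes, and called list genes such as Topbp1 and Dut, were not followed. No called gene of those followed changed sign under any alternative. The untested medians over members did: that of the interaction (-0.29) was 0.02 without WT-BAPN replicate 7, that of KI against WT on plain water (0.03) was -0.0037 without WT replicate 3 and -0.02 without WT replicate 4, and that of KI averaged over treatments (-0.15) was 0.05 without WT replicate 5 and WT-BAPN replicate 7 together. The counts of called members moved as follows for BAPN in WT, where edgeR called 5. DESeq2 called 9, limma voom 19, the fit without WT replicate 5 and KI replicates 1, 2 and 5 together (below, the 4 libraries) 11, the fit without WT replicate 5 and WT-BAPN replicate 7 together 12, the fit of only the groups compared 2 and the threshold of 0.1 gave 9. For BAPN averaged over genotypes, where edgeR called 4, the counts were 10 with limma voom, 7 without the 4 libraries, 9 without the pair of libraries and 7 at 0.1. limma voom called 1 member for KI averaged over treatments, and the fit without the pair of libraries called 1, Mcm6, for KI against WT on plain water. Leaving out single libraries gave 2 to 12 members for BAPN in WT, 0 to 9 for BAPN averaged over genotypes and 0 in every fit of the other contrasts. Over all genes, BAPN in WT gave 1493 calls with DESeq2, 4227 with limma voom, 1524 without the 4 libraries, 2208 without the pair and 1831 at 0.1, with 327 to 1609 over the fits without 1 library. BAPN in KI gave 198 with DESeq2, 0 with limma voom, with no filter or with only the groups compared, 3 without the 4 libraries, and 0 to 143 without 1 library. KI against WT on plain water gave 480 with DESeq2, 270 with limma voom, 7 with no filter, 1 without the 4 libraries, 433 without the pair, 8 with only the groups compared, 196 at 0.1 and 1 to 293 without 1 library. KI against WT on BAPN gave 19 with DESeq2, 3 with limma voom, 2 without the pair and 1 in every fit without 1 library. The interaction gave 9 with DESeq2, 4 with limma voom and 0 in every fit without 1 library. BAPN averaged over genotypes gave 1180 with DESeq2, 2384 with limma voom, 1530 without the 4 libraries, 1598 without the pair, 1191 at 0.1 and 228 to 1179 without 1 library. KI averaged over treatments gave 365 with DESeq2, 304 with limma voom, 15 with no filter, 2 without the 4 libraries, 136 without the pair, 88 at 0.1 and 4 to 286 without 1 library. For the lists on BAPN in WT, other replication factors gave 7 calls with DESeq2, 17 with limma voom, 11 without the 4 libraries, 12 without the pair, 2 with only the groups compared and 8 at 0.1. The G1 to S regulators gave 9 with limma voom, 5 without the 4 libraries, 6 without the pair and 4 at 0.1, and the CDK inhibitors 2 with limma voom and 1 with only the groups compared. Chromatin assembly gave 3 with DESeq2, without the 4 libraries, without the pair and at 0.1, 5 with limma voom and 0 with only the groups compared. limma voom gave 8 for nucleotide supply and 7 for checkpoint and fork repair. Leaving out single libraries gave 0 to 10 calls for other replication factors, 0 to 5 for G1 to S regulators, 0 to 3 for chromatin assembly, 1 to 6 for nucleotide supply and for checkpoint and fork repair, and 6 to 18 for mitosis. The causes were not tested. With the replicate number as a block, 2 members were called for BAPN in WT, Mcm10 and Orc6, so that Gins2, Cdc45 and Lig1 were not, 0 for BAPN averaged over genotypes and 0 of the chromatin list, with 154 genes for BAPN averaged over genotypes and 0 for BAPN in KI. The block also put the median for KI averaged over treatments at 0.04. Same-numbered libraries of WT-BAPN and WT had correlations of 0.20 to 0.57 in their deviations from the group means for replicates 1 to 5 and -0.11 for replicate 6, and replicate 5 alone correlated best with its own number. Over all comparisons the range was -0.52 to 0.57. As not every pair was above 0.1 and no label ties the numbers to a shared litter or day, they were not taken to pair the animals. Depth limits the lowest genes most, such as Mcm10 with 3 to 94 reads per library.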
